A study of Homo sapiens with 22 samples.

Results

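The 10 genes described here are NOTCH pathway components measured by RNA-seq in H1299 cells. They comprise the receptors NOTCH1, NOTCH2 and NOTCH3, the ligands JAG1, JAG2 and DLL1, the DNA-binding factor RBPJ, and the target genes HES1, HEY1 and NRARP. They were chosen by name and role, with earlier results of these data known though no measured value entered the rule, and all 10 were found among 37908 gene identifiers once those had been matched to symbols. All 10 passed the filter on low counts in every comparison.

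NOTCH receptors are single-pass membrane proteins that are activated by Jagged and Delta ligands on a neighbouring cell. Ligand binding leads to cleavage by an ADAM metalloprotease and then by γ-secretase, and the released intracellular domain enters the nucleus, where it joins RBPJ and Mastermind proteins to switch on genes such as HES1 and HEY1, which encode transcriptional repressors, and NRARP, which encodes an inhibitor of the intracellular domain. β-catenin is the effector of the WNT pathway and acts through TCF/LEF factors, and GSK3 marks it for degradation. JAG1 is known both as a NOTCH ligand and as a WNT target gene.

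H1299 is a line of human non-small cell lung cancer, here carrying a BRCA2 shRNA expressed when doxycycline (DOX) is added. Cells grown without DOX were BRCA2-proficient and cells given DOX for 3 days were BRCA2-deficient. Both were transfected with a control siRNA or an siRNA against β-catenin (siβ-catenin), and some then received LY2090314, a GSK3 inhibitor (GSK3i), for 24 h at 250 nM. The study's methods list 1 siβ-catenin sequence, so loss of β-catenin and other effects of that siRNA cannot be told apart. The 22 libraries formed 8 groups, namely untreated, GSK3i, siβ-catenin and GSK3i+siβ-catenin in each background, where untreated and GSK3i cells carried the control siRNA. Each group had 3 libraries, except the BRCA2-proficient untreated and siβ-catenin groups, which had 2, numbered 2 and 3. All libraries derived from 1 inducible line, and DOX was present in every BRCA2-deficient library and in no other, so that effects of DOX and of BRCA2 depletion cannot be told apart.

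Libraries held 18.9 to 29.3 M counted reads (M, counts in units of 1e6), with a median of 23.2 M. The carcinoma and mesenchymal genes KRT8, KRT18 and VIM were each above a mean of 100 normalised counts, whereas the epithelial markers KRT19 and CDH1 were below 10, as were the surfactant genes SFTPC, SFTPB and SFTPA1, the endothelial genes CDH5, VWF and TEK, and the leukocyte genes PTPRC and CD14. KDR, from the endothelial list, was above 100. Normalised counts are read counts divided by a size factor for each library, computed over all 22 libraries. BRCA2 itself had 514 to 1111 normalised counts in libraries without DOX and 71.4 to 225 in those with DOX, and CTNNB1, which encodes β-catenin, had 5206 to 8669 with control siRNA and 977 to 2217 with siβ-catenin, so neither set of labels was contradicted.

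Libraries of BRCA2-proficient cells with siβ-catenin did not all match their GSK3i label. A log2 ratio was formed from the summed counts of 50 genes raised and 50 genes lowered by GSK3i, both chosen in BRCA2-deficient cells. This ratio was 2.66 to 3.30 in 11 other GSK3i libraries and −0.94 to −0.22 in 8 other libraries without GSK3i. These include the BRCA2-deficient libraries used to choose the genes. In the BRCA2-proficient libraries among them it was 3.03 to 3.29 with GSK3i and −0.37 to −0.22 without. The library labelled BRCA2-proficient siβ-catenin replicate 2 stood at 2.87, in the range of all GSK3i libraries and just below the proficient ones. The library labelled BRCA2-proficient GSK3i+siβ-catenin replicate 2 stood at −0.37, in the range of libraries without GSK3i. BRCA2-proficient siβ-catenin replicate 3 lay between the ranges at 0.83. Labels were kept as deposited, and the values of the named called genes in comparisons that hold either replicate 2 library are given with and without it. Leaving out siβ-catenin replicate 2 left the intermediate replicate 3 as the lone library of its group. Such values therefore rest on that library, which was assumed to vary like the others.

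**Figure D1:**
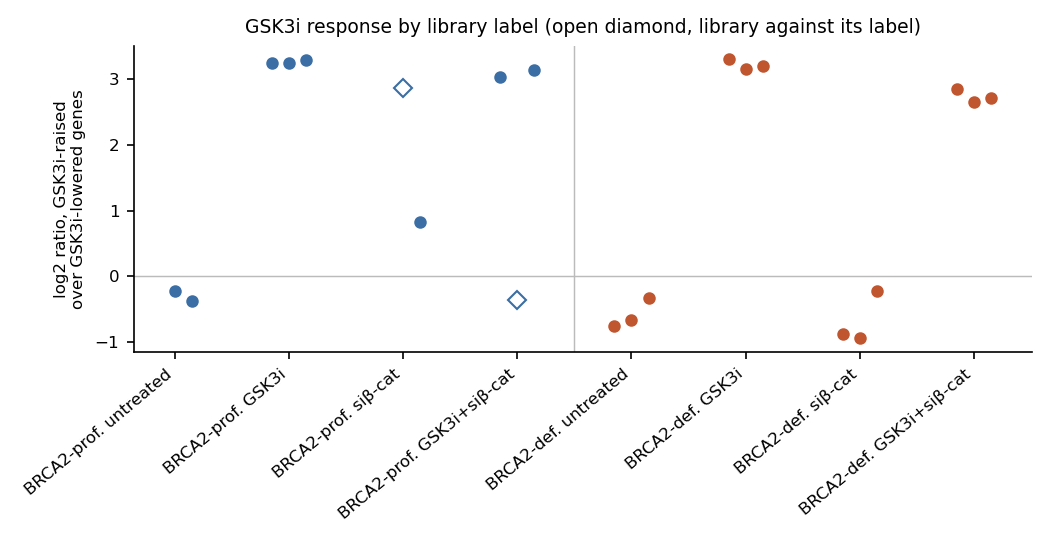
Log2 ratio of the summed normalised counts of 50 GSK3i-raised over 50 GSK3i-lowered genes (y axis) for each library, by labelled group (x axis); open diamonds mark the libraries that went against their label. The BRCA2-proficient siβ-catenin replicate 2 library sat at 2.87 among GSK3i libraries and the GSK3i+siβ-catenin replicate 2 library at −0.37 among libraries without GSK3i.

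Short stretches upstream of member genes are shown because the study concerns a TCF/LEF cofactor and RBPJ is the DNA-binding factor of the NOTCH pathway. RefSeq start-site windows (GRCh38.p14, a newer build than that of the counts) were found for 8 of 10 members, with 5 windows for RBPJ. In the 250 bases before each start, both strands were searched for CTTTGA and CTTTGT (TCF/LEF), TGGGAA and its extension GTGGGAA (RBPJ), and CACGTG (the E box bound by HES and HEY proteins). Among all 35116 windows these occurred in 11.2%, 13.7%, 20.8%, 5.43% and 6.34%, respectively. HES1 and RBPJ were the members with matches. The HES1 stretch spans chr3:194136038-194136097 on the plus strand, bases −110 to −51, and holds a pair of TGGGAA matches at −84 and −70, the first of them part of GTGGGAA. The RBPJ stretches come from separate starts on the plus strand, the first at chr4:26163328-26163377 with CTTTGT and, read on the other strand, CTTTGA, and the second at chr4:26319616-26319695 with GTGGGAA on each strand. Capitals mark these matches, without the first G of GTGGGAA.
HES1: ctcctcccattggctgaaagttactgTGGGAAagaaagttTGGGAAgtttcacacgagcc
RBPJ start 1: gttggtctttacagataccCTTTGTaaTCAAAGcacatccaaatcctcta
RBPJ start 2: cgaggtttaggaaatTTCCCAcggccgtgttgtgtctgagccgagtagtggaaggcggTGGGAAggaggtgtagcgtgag

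NRARP and JAG1, the members raised by GSK3i and lowered again by siβ-catenin in BRCA2-proficient cells, had none of these letters in the 250 bases before their starts. The NRARP window is chr9:137302272-137302521 on the minus strand, with a GC content of 78.4%, and the JAG1 window is chr20:10674000-10674249 on the minus strand, with a GC content of 68.4%, against a median of 58% over all windows. These are shown without capitals.
NRARP: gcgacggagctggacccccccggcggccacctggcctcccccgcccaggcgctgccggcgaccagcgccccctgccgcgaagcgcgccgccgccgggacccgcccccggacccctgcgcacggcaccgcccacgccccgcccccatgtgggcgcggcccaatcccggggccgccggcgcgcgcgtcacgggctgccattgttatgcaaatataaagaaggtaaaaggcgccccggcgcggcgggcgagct
JAG1: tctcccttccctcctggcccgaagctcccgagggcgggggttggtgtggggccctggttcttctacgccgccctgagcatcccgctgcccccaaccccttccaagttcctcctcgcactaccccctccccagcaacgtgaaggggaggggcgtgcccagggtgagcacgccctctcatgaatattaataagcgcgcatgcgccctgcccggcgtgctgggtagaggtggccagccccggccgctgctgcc

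Levels per gene length, in TPM, a unit that scales each library to the same total, over the union of annotated exons, placed RBPJ and NOTCH2 highest and NOTCH1 lowest. Over the 22 libraries the level of RBPJ was 29.4 to 60.7 TPM with a median of 40.5, and that of NOTCH2 was 19.5 to 54.2 with a median of 39.3. Next came JAG2, with a level of 9.65 to 64.5 TPM and a median of 26.3, HES1, with 13.9 to 56.5 and a median of 25.8, and JAG1, with 11.1 to 33.0 and a median of 17.9. NOTCH3 followed at a level of 3.49 to 31.7 TPM and a median of 13.2, then HEY1 at 2.61 to 21.2 and 7.76. These orders were loose, since each member's range overlapped that of its neighbour. At the low end, DLL1 had a median level of 4.14 TPM, NRARP of 3.15 and NOTCH1 of 1.10, so that NOTCH1 rested on 30.2 to 253 normalised counts a library. With the longest transcript as length, JAG2 and HES1 changed places and the median level of RBPJ was 77.0 TPM.

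In GRCh37 the receptors lie at chr9:139388885-139440500 (NOTCH1), chr1:120454176-120643366 (NOTCH2) and chr19:15269849-15311806 (NOTCH3), all on the minus strand. The ligands lie at chr20:10618332-10654647 (JAG1), chr14:105607319-105635161 (JAG2) and chr6:170591294-170615653 (DLL1), also on the minus strand. RBPJ lies at chr4:26165077-26436753 and HES1 at chr3:193853937-193856521, both on the plus strand, and NRARP at chr9:140194083-140196723 on the minus strand. Counts were over exons. DLL1 shares 370 bases of exon with FAM120B on the opposite strand, and FAM120B had 37096 counts over all libraries against 2115 for DLL1. Whether counting used the strand is not given in the sources used here, so the DLL1 values are uncertain to that extent, and NOTCH2 shares sequence with its NOTCH2NL copies.

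**Figure D2:**
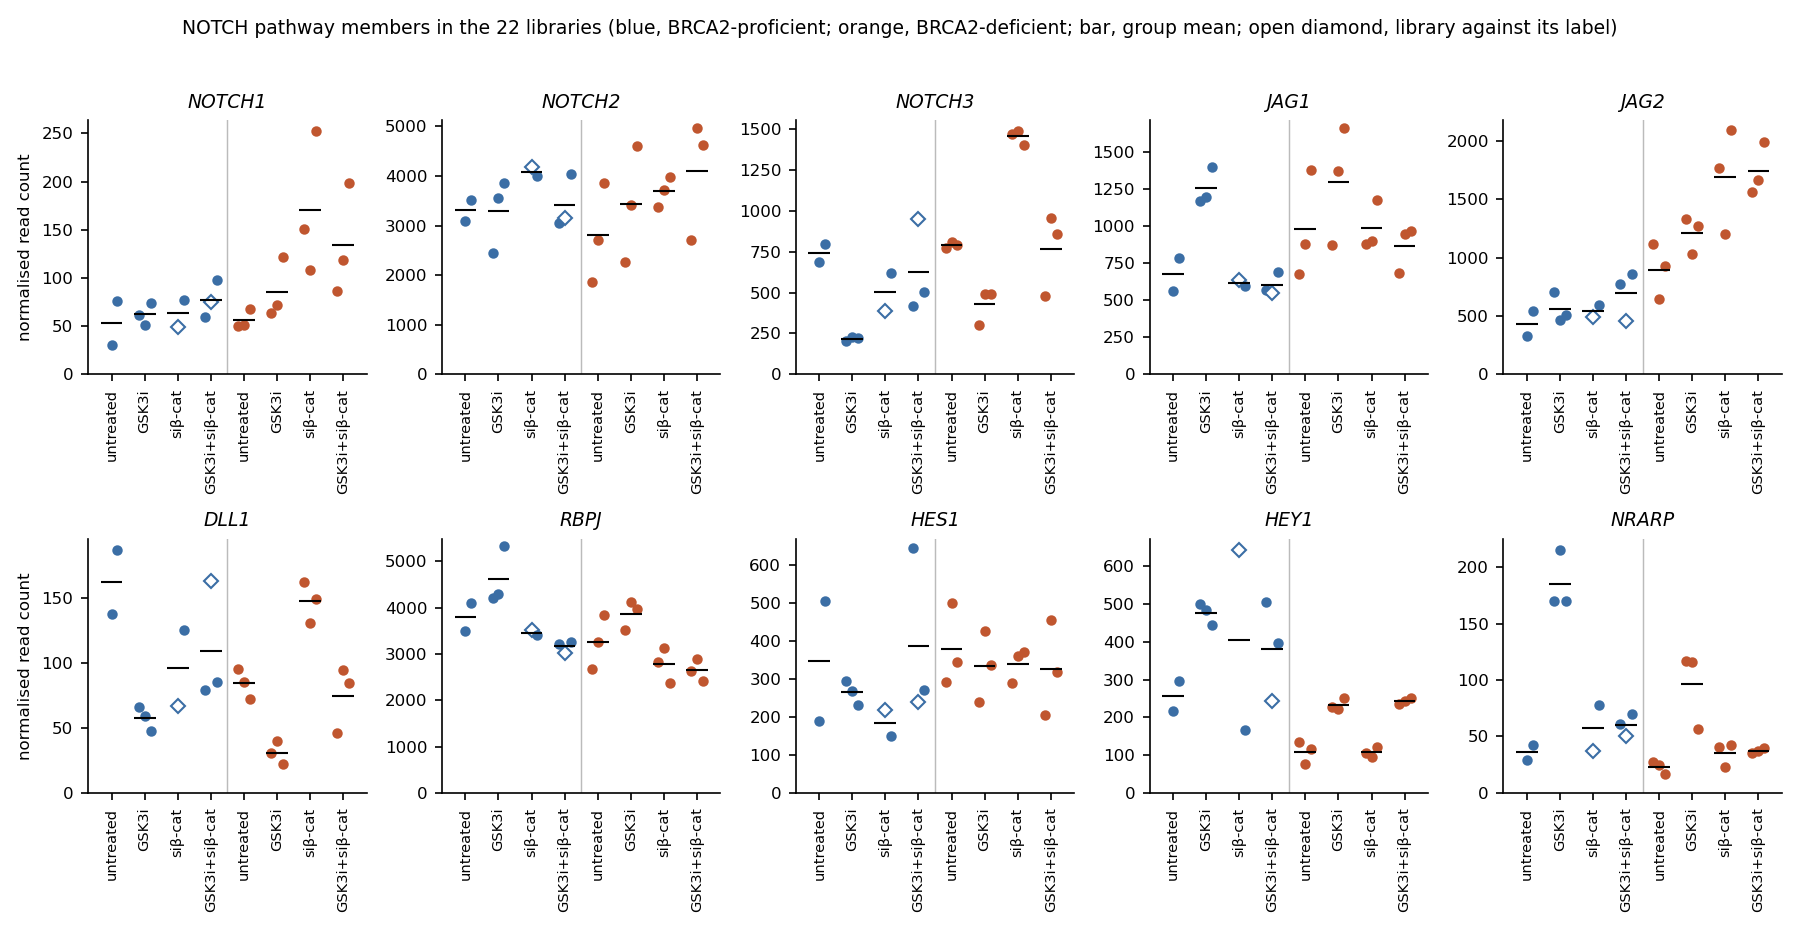
Normalised counts (linear axis) of each of the 10 members in every library, by group. Points are libraries, and open diamonds are the libraries that went against their GSK3i label. NOTCH3 and DLL1 were lower and NRARP and HEY1 higher in GSK3i than in untreated libraries of both backgrounds.

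The first question was how GSK3i changed these genes, a comparison that does not by itself tell whether β-catenin was involved. In both backgrounds GSK3i lowered the receptor NOTCH3 and the ligand DLL1, and raised the target genes HEY1 and NRARP. JAG1 rose in BRCA2-proficient cells, and HES1, NOTCH1, NOTCH2, JAG2 and RBPJ did not pass the test in either background. A gene was called changed at a Benjamini-Hochberg adjusted p below 0.05 in DESeq2 and an absolute log2 fold change above 0.5. In BRCA2-proficient cells 5 of 10 members were called, against 26.1% of the 16771 genes tested, and in BRCA2-deficient cells 4 of 10, against 25.4% of 16863. The median log2 fold change over members was 0.24 and 0.35, and over all genes −0.002 and 0.025. AXIN2, a WNT target used as a check, rose by 3.83 and 4.61 on the log2 scale.

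NOTCH3 had 688 and 795 normalised counts in BRCA2-proficient untreated libraries and 202, 229 and 222 with GSK3i. In BRCA2-deficient cells it had 771, 812 and 789 untreated and 305, 490 and 489 with GSK3i. All GSK3i libraries lay below all untreated ones within each background. The log2 fold change of NOTCH3 was −1.79 ± 0.18 (SE, n = 2 and 3, adjusted p = 6.65e-22) in proficient cells, 0.290 times the untreated level, and −0.89 ± 0.22 (n = 3 and 3, adjusted p = 0.000452) in deficient cells, 0.541 times the untreated level. NOTCH1 and NOTCH2, the other receptors, had log2 fold changes of 0.20 and −0.025 in proficient and 0.61 and 0.28 in deficient cells, with overlapping groups.

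DLL1, the Delta-type ligand in the set, had 138 and 188 normalised counts in BRCA2-proficient untreated libraries and 66.4, 59.2 and 47.4 with GSK3i. In BRCA2-deficient cells it had 95.2, 85.6 and 72.7 untreated and 30.9, 39.8 and 22.4 with GSK3i. The groups did not overlap in either background, and the log2 fold changes were −1.52 ± 0.30 (n = 2 and 3, adjusted p = 4.38e-06) and −1.44 ± 0.34 (n = 3 and 3, adjusted p = 0.000186). JAG1, the Jagged ligand that is also a WNT target, had 560 and 788 in proficient untreated and 1168, 1197 and 1399 in proficient GSK3i libraries, with no overlap. Its log2 fold change there was 0.88 ± 0.18 (n = 2 and 3, adjusted p = 5.92e-06). In BRCA2-deficient cells JAG1 ranged from 676 through 877 to 1381 untreated and from 871 through 1369 to 1659 with GSK3i. These groups overlapped, and the log2 fold change was 0.41 ± 0.31 (n = 3 and 3, adjusted p = 0.340). The replicate numbers paired the libraries in this comparison, and with replicate as a block the JAG1 value was 0.42 with an adjusted p of 0.00105, still under the size threshold. Without BRCA2-deficient untreated replicate 3, the highest of its group, JAG1 was called at 0.74 (adjusted p = 0.0445).

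Among the target genes, NRARP had 29 and 42.8 normalised counts in BRCA2-proficient untreated libraries and 170, 215 and 170 with GSK3i. In BRCA2-deficient cells it had 27.4, 24.9 and 16.4 untreated and 117, 116 and 56.3 with GSK3i. This was the largest change among the members in both backgrounds, 5.06-fold (log2 fold change 2.34 ± 0.30, n = 2 and 3, adjusted p = 7.20e-13) and 4.21-fold (2.08 ± 0.41, n = 3 and 3, adjusted p = 6.25e-06). HEY1, a basic helix-loop-helix repressor, had 216 and 297 in proficient untreated libraries against 499, 484 and 444 with GSK3i. In BRCA2-deficient cells HEY1 had 135, 75.8 and 116 untreated and 227, 221 and 252 with GSK3i. HEY1 was thus higher in every GSK3i library of its background, with log2 fold changes of 0.87 ± 0.19 (n = 2 and 3, adjusted p = 5.80e-05) and 1.10 ± 0.26 (n = 3 and 3, adjusted p = 0.000185). HES1, the related repressor, had 189 and 505 in proficient untreated and 296, 269 and 232 in proficient GSK3i libraries, and 293, 499 and 346 against 238, 426 and 336 in deficient cells. HES1 groups overlapped in both backgrounds, and its log2 fold changes were −0.41 ± 0.30 and −0.19 ± 0.28. In proficient cells the HES1 value rested on the 2 untreated libraries, and without untreated replicate 2 it was −0.94 (adjusted p = 0.00530). JAG2 was likewise called without untreated replicate 3 in proficient cells (0.77, adjusted p = 0.0432) and without untreated replicate 1 in deficient cells (0.62, adjusted p = 0.0349).

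Whether the GSK3i response differed between backgrounds was tested as an interaction in DESeq2. No member passed, against 0.0345% of 17381 genes, and 1 member had an unadjusted p below 0.05. In edgeR 0 of all 17381 genes were called, also with 1 member below 0.05. That member was NOTCH3, whose fall was smaller in BRCA2-deficient cells by 0.89 ± 0.28 on the log2 scale (adjusted p = 0.551). The NOTCH3 difference was called with replicate as a block (0.77, adjusted p = 0.0420) and without BRCA2-deficient GSK3i replicate 1, the library with 305 counts (1.08, adjusted p = 0.000199). For JAG1 the difference was −0.49, with a 95% interval of −1.32 to 0.34, and for NRARP −0.28, with an interval of −1.28 to 0.71, wide enough to hold no difference as well as a marked one.

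**Figure D3:**
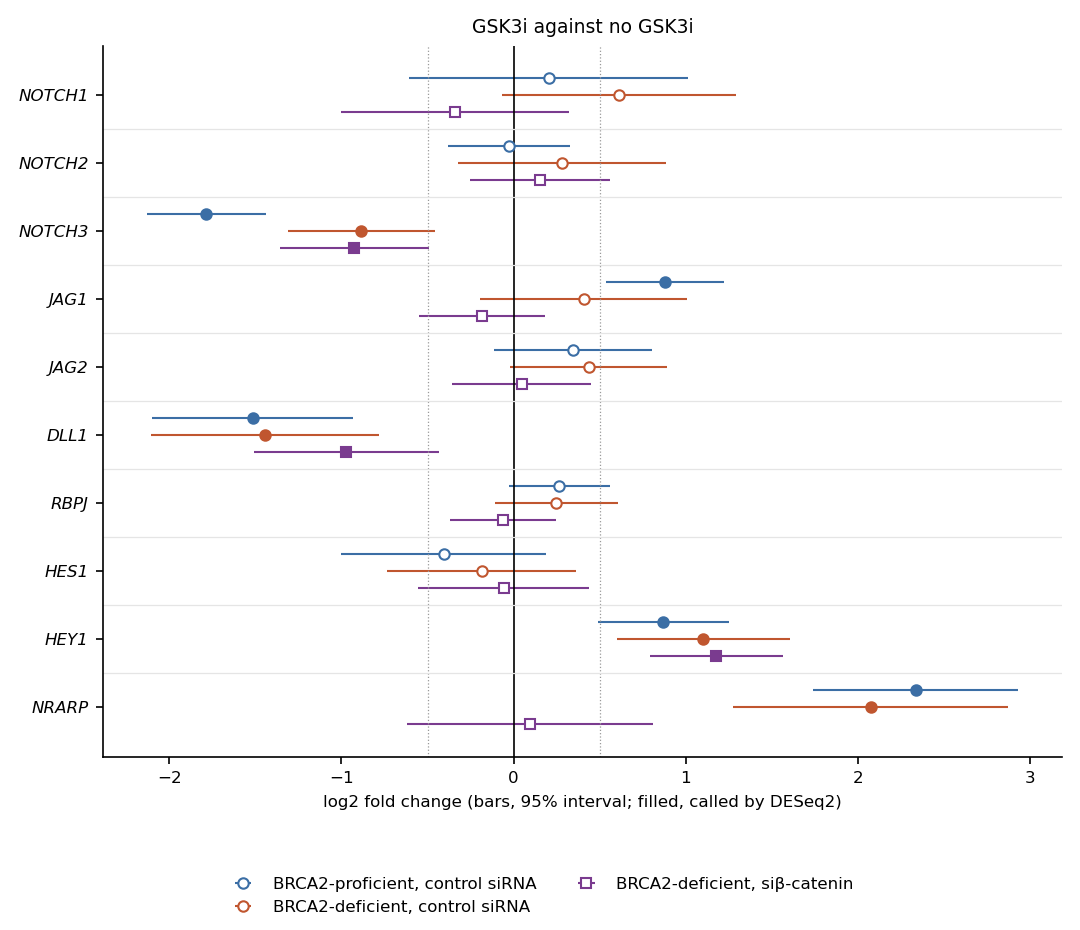
Log2 fold change with 95% interval (x axis) of each member (y axis) for GSK3i against no GSK3i in BRCA2-proficient cells, BRCA2-deficient cells and BRCA2-deficient cells with siβ-catenin; filled points were called. NOTCH3 and DLL1 lay left of 0 and HEY1 right of 0 in all 3 comparisons, whereas NRARP stood at 2.34 and 2.08 with control siRNA and 0.10 with siβ-catenin.

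The second question was which of these genes changed with siβ-catenin while GSK3 was inhibited. In BRCA2-proficient cells under GSK3i, siβ-catenin raised NOTCH3 and lowered JAG1, NRARP and RBPJ. In BRCA2-deficient cells it raised DLL1 and JAG2 and lowered NRARP and RBPJ. With replicate as a block NOTCH1, NOTCH3 and JAG1 were called there as well, whereas edgeR called no member there. Without the block 4 of 10 members were called in each background, against 5.1% of 16393 genes in proficient and 5.52% of 17025 in deficient cells. AXIN2 fell by 3.29 and 3.10 on the log2 scale. HEY1, HES1, NOTCH1 and NOTCH2 were not called in either background without the block.

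NRARP fell from the GSK3i values above to 61.4, 50 and 70.1 normalised counts in BRCA2-proficient and 35.0, 37.3 and 39.9 in BRCA2-deficient GSK3i+siβ-catenin libraries. No library overlapped, and the log2 fold changes were −1.59 ± 0.26 (n = 3 and 3, adjusted p = 1.83e-07) and −1.36 ± 0.36 (n = 3 and 3, adjusted p = 0.00470). Without the library labelled GSK3i+siβ-catenin replicate 2 the proficient value was −1.47, and without BRCA2-deficient GSK3i replicate 2 the deficient call was lost (−1.21, adjusted p = 0.139). JAG1 had 571, 549 and 688 with GSK3i+siβ-catenin in proficient cells, all below the GSK3i libraries and within 560 to 788 of the untreated ones apart from the 549 of replicate 2. Its log2 fold change was −1.03 ± 0.16 (n = 3 and 3, adjusted p = 5.77e-08), and −0.98 without replicate 2. In BRCA2-deficient cells JAG1 had 686, 946 and 965, overlapping the GSK3i libraries, and the log2 fold change was −0.59 ± 0.27 (n = 3 and 3, adjusted p = 0.186). The replicate numbers paired these libraries as well, and blocked by replicate the JAG1 fall was called at −0.56 (adjusted p = 1.49e-05), as it was without GSK3i replicate 1 (−0.81, adjusted p = 0.00271).

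NOTCH3 had 420, 950 and 507 normalised counts in BRCA2-proficient GSK3i+siβ-catenin libraries, where 950 was the replicate 2 library against its label. All 3 exceeded the GSK3i libraries, with a log2 fold change of 1.55 ± 0.29 (n = 3 and 3, adjusted p = 2.11e-05), or 1.11 (adjusted p = 1.91e-07) without replicate 2. In BRCA2-deficient cells NOTCH3 had 479, 958 and 860, overlapping with GSK3i alone, and a log2 fold change of 0.83 ± 0.30 (n = 3 and 3, adjusted p = 0.0688). It was called when blocked by replicate (0.81, adjusted p = 7.36e-09) and without GSK3i+siβ-catenin replicate 1 (1.08, adjusted p = 0.00109). DLL1 had 46.0, 94.7 and 84.4 in deficient GSK3i+siβ-catenin libraries, each above its GSK3i libraries, with a log2 fold change of 1.27 ± 0.40 (n = 3 and 3, adjusted p = 0.0243). In proficient cells DLL1 had 79.6, 164 and 85.6, and the value of 0.96 ± 0.36 (adjusted p = 0.0932) became 0.54 without replicate 2. JAG2, a second Jagged ligand, had 1331, 1035 and 1275 with GSK3i and 1563, 1666 and 1991 with GSK3i+siβ-catenin in deficient cells, a log2 fold change of 0.52 ± 0.18 (n = 3 and 3, adjusted p = 0.0473).

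RBPJ, through which the NOTCH intracellular domain reaches DNA, had called changes that were close to the size threshold. It had 4199, 4303 and 5338 normalised counts with GSK3i and 3212, 3032 and 3256 with GSK3i+siβ-catenin in BRCA2-proficient cells, and 3520, 4129 and 3973 against 2642, 2897 and 2425 in BRCA2-deficient cells. The groups did not overlap, and the log2 fold changes were −0.52 ± 0.15 (n = 3 and 3, adjusted p = 0.0117) and −0.55 ± 0.15 (n = 3 and 3, adjusted p = 0.00468). Without the proficient GSK3i+siβ-catenin replicate 2 library the value was −0.495 (adjusted p = 0.0124), under the size threshold. The RBPJ call was also lost in edgeR (adjusted p = 0.0884) and without proficient GSK3i replicate 2 or 3 or GSK3i+siβ-catenin replicate 1 or 3 (adjusted p of 0.0572 to 0.0789), and in deficient cells without GSK3i replicate 2 or 3 or GSK3i+siβ-catenin replicate 3 (0.0878 to 0.148).

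In BRCA2-deficient cells the count of 4 became 7 when blocked by replicate, with NOTCH1 (0.62, adjusted p = 0.0462), NOTCH3 and JAG1 added, and fell to 0 without GSK3i replicate 2, 1 without GSK3i replicate 3, 2 without GSK3i+siβ-catenin replicate 2 and 1 without its replicate 3. Over all genes 1341 were called with the block and 939 without it. With edgeR no member was called there (adjusted p of 0.0772 for NRARP, 0.0781 for RBPJ, 0.103 for DLL1 and 0.121 for JAG2), where 267 of all 17025 genes were. The DLL1 call was lost without any of these 4 libraries (adjusted p of 0.0615 to 0.260), as was that of JAG2 (0.144 to 0.401). The response to siβ-catenin under GSK3i was also compared between backgrounds. No member differed in DESeq2, against 0.0057% of 17544 genes, with 0 members at an unadjusted p below 0.05, and 0 by either measure in edgeR. The difference, deficient minus proficient, had a 95% interval of −0.18 to 1.10 for JAG1, −1.59 to 0.19 for NOTCH3 and −0.55 to 1.05 for NRARP. Without proficient GSK3i+siβ-catenin replicate 2 the NOTCH3 estimate went from −0.70 to −0.26, that of JAG1 from 0.46 to 0.40 and that of NRARP from 0.25 to 0.13.

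Without GSK3i, the siβ-catenin response was read in BRCA2-deficient cells. The genes of the GSK3i ratio were chosen with these libraries and their labels, so the ratio is no independent check of them. There 4 of 10 members were called, against 2.03% of 17324 genes, and all 4 rose. They were the receptors NOTCH1 and NOTCH3 and the ligands JAG2 and DLL1. AXIN2, the WNT target used as a check, did not fall in this comparison. Its log2 fold change was 0.547 ± 0.254 (n = 3 and 3, DESeq2 adjusted p = 0.294), and every siβ-catenin library lay above every untreated one. Whether the rises of these members reflect lower WNT activity was not tested. NOTCH1 had 50, 50.9 and 67.5 normalised counts untreated and 151, 109 and 253 with siβ-catenin, a 3.05-fold difference (log2 fold change 1.61 ± 0.33, n = 3 and 3, adjusted p = 0.000361). NOTCH3 rose from the untreated values above to 1471, 1491 and 1406 (0.89 ± 0.14, n = 3 and 3, adjusted p = 1.57e-07). No library of either receptor overlapped between the groups. JAG2 had 1119, 645 and 925 untreated and 1772, 1207 and 2091 with siβ-catenin (0.92 ± 0.25, n = 3 and 3, adjusted p = 0.0155), and DLL1 rose to 162, 131 and 150 (0.81 ± 0.23, n = 3 and 3, adjusted p = 0.0276), again without overlap. In edgeR no gene in the table was called for this comparison, and the adjusted p of these 4 members was 0.0845 to 0.185. The DLL1 call was lost blocked by replicate (0.0589) and without untreated replicate 2 or 3 or any siβ-catenin library (0.0641 to 0.316), and the JAG2 call without siβ-catenin replicate 1 or 3 or untreated replicate 2 (0.143 to 0.256). NRARP had 40.3, 22.8 and 42.4 with siβ-catenin, overlapping the untreated libraries, and JAG1 had 882, 898 and 1173, a log2 fold change of 0.010 with a 95% interval of −0.49 to 0.51. NOTCH2, with 1872, 2714 and 3856 untreated and 3377, 3721 and 3974 with siβ-catenin, was called without untreated replicate 3 (0.70, adjusted p = 0.0160).

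In BRCA2-proficient cells no member was called for siβ-catenin without GSK3i, against 2.97% of 17654 genes, with 2 members at an unadjusted p below 0.05 in DESeq2 and 0 called or below 0.05 in edgeR. Here 1 of 2 siβ-catenin libraries went against its label and the other was intermediate. NOTCH3 had 385 in replicate 2 and 620 in replicate 3, and HEY1 had 644 and 167, so the replicates stood far apart. Without replicate 3 the remaining library, whose GSK3i ratio was that of treated cells, gave called values for HEY1 (1.32, adjusted p = 0.000545) and NOTCH3 (−0.96, adjusted p = 0.00245). Without replicate 2 no member was called, and the values of NOTCH3 and HEY1 were −0.26 and −0.62.

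**Figure D4:**
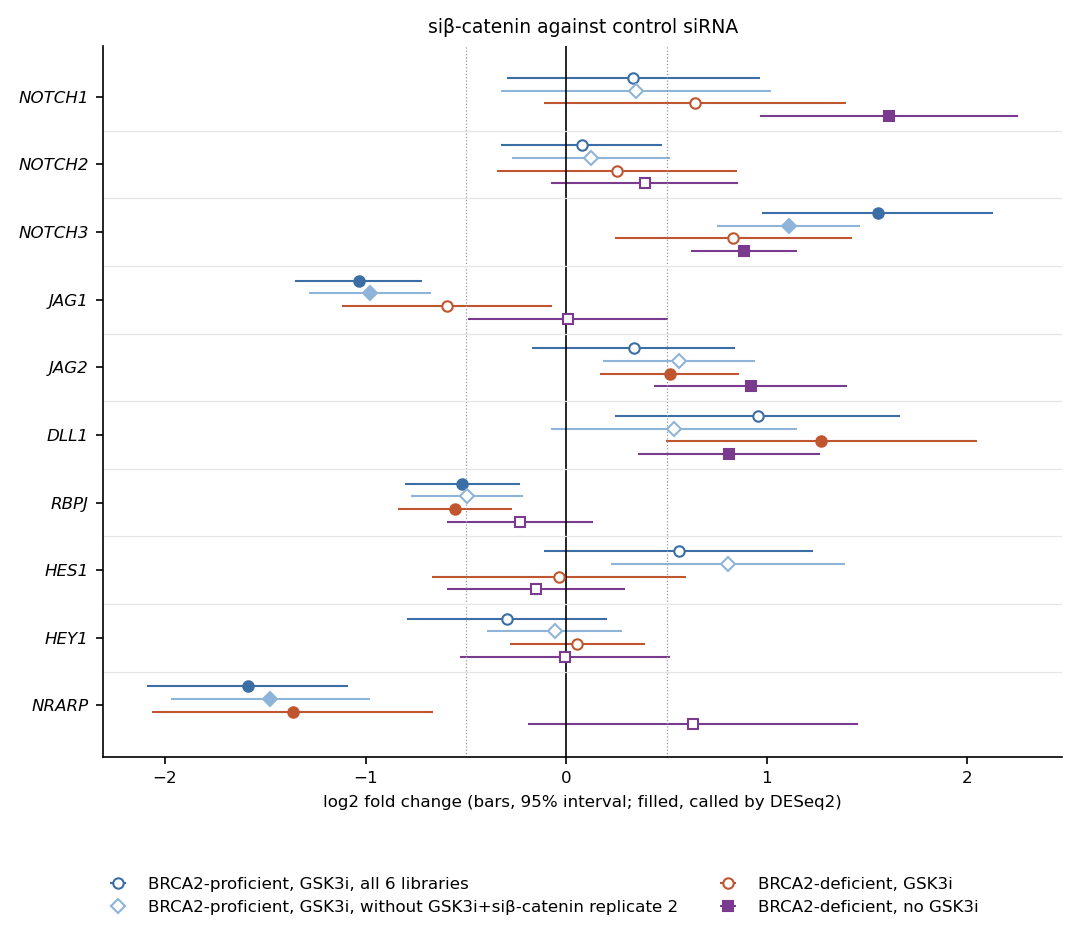
Log2 fold change with 95% interval (x axis) of each member (y axis) for siβ-catenin against control siRNA, in BRCA2-proficient cells under GSK3i with all libraries and without the GSK3i+siβ-catenin replicate 2 library, and in BRCA2-deficient cells under GSK3i and without it; filled points were called. JAG1 and NRARP lay left of 0 under GSK3i, and NOTCH1, NOTCH3, JAG2 and DLL1 right of 0 without GSK3i.

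The dependence of the siβ-catenin effect on GSK3i was tested as an interaction. In BRCA2-deficient cells 1 of 10 members was called, against 0.486% of 18117 genes. It was NRARP, with a log2 difference of −2.00 ± 0.52 (adjusted p = 0.0265), since siβ-catenin lowered NRARP under GSK3i and not without it. The adjusted p of NRARP in edgeR was 0.248, where 11 of all 18117 genes were called. Its call was lost when any of 9 of the 12 libraries was left out, that is all but untreated replicate 1, GSK3i replicate 3 and siβ-catenin replicate 2 (adjusted p of 0.0919 to 0.229). In BRCA2-proficient cells 4 of 10 members were called, against 7.63% of 17093 genes, 2 with a positive and 2 with a negative difference. NRARP (−2.27 ± 0.51, adjusted p = 0.00143) and NOTCH3 (2.11 ± 0.45, adjusted p = 0.000845) were at −2.58 and 1.37 without both replicate 2 libraries. JAG1 (−0.91 ± 0.27, adjusted p = 0.0195) and DLL1 (1.71 ± 0.56, adjusted p = 0.0331) were at −0.80 and 0.91 without them, neither called. All these reduced values rest on a lone siβ-catenin library, the intermediate replicate 3. In edgeR none of the 4 members was called (adjusted p of 0.0986 to 0.109), where 4 of all 17093 genes were. Blocked by replicate DLL1 was not called (adjusted p = 0.0675). JAG1 was also not called without untreated replicate 2, GSK3i replicate 2 or 3, or siβ-catenin replicate 2 (0.0647 to 0.172), nor DLL1 without these, untreated replicate 3 or GSK3i+siβ-catenin replicate 2 (0.0711 to 0.269). Without GSK3i+siβ-catenin replicate 3, HES1 was called instead (1.68, adjusted p = 0.0427), and without siβ-catenin replicate 3, HEY1 (−1.62, adjusted p = 0.00719).

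GSK3i was also compared with no GSK3i in cells that had received siβ-catenin. In BRCA2-deficient cells 3 of 10 members were called, against 20.1% of 17610 genes. NOTCH3 fell from 1471, 1491 and 1406 normalised counts to 479, 958 and 860 (−0.93 ± 0.22, n = 3 and 3, adjusted p = 0.000377), DLL1 from 162, 131 and 150 to 46.0, 94.7 and 84.4 (−0.97 ± 0.27, n = 3 and 3, adjusted p = 0.00334), and HEY1 rose from 107, 96.1 and 121 to 236, 243 and 252 (1.18 ± 0.20, n = 3 and 3, adjusted p = 1.27e-07). For each of these genes the 2 groups were separate. NRARP, in contrast, overlapped, with a log2 fold change of 0.10 ± 0.36 and a 95% interval of −0.62 to 0.81. CTNNB1 still had counts in every siβ-catenin library, and AXIN2 rose by 0.98 ± 0.27 (adjusted p = 0.00258) in this comparison. The DLL1 call was lost without siβ-catenin replicate 1 (−0.91, adjusted p = 0.0524).

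In BRCA2-proficient cells the same comparison called no member, against 0.0529% of 17010 genes, with 1 at an unadjusted p below 0.05, and 0 by either measure in edgeR. Both libraries against their labels enter it, 1 on each side. HEY1 had 644 and 167 normalised counts with siβ-catenin and 506, 243 and 397 with GSK3i+siβ-catenin, and its log2 fold change of −0.077 ± 0.515 became 1.44 ± 0.30 (adjusted p = 9.75e-05) without both. That value rests on a lone siβ-catenin library, assumed to vary like the others, and 1 member was then called. The difference between backgrounds in this GSK3i response called no member in DESeq2, against 0.439% of 18002 genes, with 4 members at an unadjusted p below 0.05, and edgeR called 0 with 3 below 0.05. The NOTCH3 difference there, −1.24 (adjusted p = 0.157), was called blocked by replicate (−1.42, adjusted p = 0.0354) and without BRCA2-proficient siβ-catenin replicate 3 (−1.63, adjusted p = 0.0353), which also called HEY1 (1.93, adjusted p = 0.00134), but was −0.51 without both replicate 2 libraries.

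The last question was how BRCA2 depletion changed these genes within each treatment. The ligand JAG2 was higher in BRCA2-deficient cells under all 4 treatments, and the target HEY1 was lower and called under 3 of them with all libraries. Of 10 members, 3 were called in untreated cells, against 6.91% of 17157 genes, 4 under GSK3i, against 6.81% of 16336, 6 under siβ-catenin, against 27.4% of 17813, and 1 under GSK3i+siβ-catenin, against 7.74% of 17046. In edgeR none of the 3 in untreated cells was called (adjusted p of 0.0541 for HEY1, 0.0715 for DLL1 and 0.106 for JAG2), where 326 of all 17157 genes were. The 4 comparisons share no libraries. DOX was present on the deficient side of each. Under siβ-catenin 1 of the proficient libraries went against its GSK3i label and the other was intermediate. A GSK3i difference and BRCA2 status therefore cannot be told apart in that count or its share of all genes.

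JAG2 had 326 and 545 normalised counts in BRCA2-proficient untreated libraries, against 1119, 645 and 925 in deficient ones. Under GSK3i it had 709, 463 and 510 against 1331, 1035 and 1275. With siβ-catenin JAG2 had 490 and 596 against 1772, 1207 and 2091, and with GSK3i+siβ-catenin 776, 458 and 856 against 1563, 1666 and 1991. Every deficient library exceeded every proficient library of its treatment. The log2 fold changes were 1.01 ± 0.29 (n = 2 and 3, adjusted p = 0.0116), 1.11 ± 0.20 (n = 3 and 3, adjusted p = 2.23e-06), 1.62 ± 0.25 (n = 2 and 3, adjusted p = 8.46e-09) and 1.32 ± 0.24 (n = 3 and 3, adjusted p = 6.95e-06), respectively. Without the replicate 2 libraries against their labels the last 2 were 1.47, with a lone proficient library left, and 1.08 (adjusted p = 1.37e-07). The untreated call was lost without proficient replicate 2 (0.69, adjusted p = 0.572). With all libraries, JAG1 was called under siβ-catenin and under no other treatment (0.65 ± 0.20, n = 2 and 3, adjusted p = 0.00657), where proficient libraries had 636 and 598 and deficient ones 882, 898 and 1173. Without proficient replicate 2, which leaves a lone proficient library, it was 0.69. The call was lost blocked by replicate (adjusted p = 0.0807) and without deficient replicate 3 (0.0613). In untreated cells JAG1 was called blocked by replicate (0.72, adjusted p = 0.00474) and without deficient replicate 1 (0.74, adjusted p = 0.0276), and with GSK3i+siβ-catenin without deficient replicate 1 (0.66, adjusted p = 0.00766).

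DLL1 was lower in BRCA2-deficient untreated libraries, with a log2 fold change of −0.98 ± 0.29 (n = 2 and 3, adjusted p = 0.0139), but the call was lost blocked by replicate (adjusted p = 0.123) and without proficient replicate 2 or 3 or deficient replicate 2 or 3 (0.0552 to 0.749). Under siβ-catenin DLL1 had 67.2 and 126 against 162, 131 and 150, and a value of 0.59 (adjusted p = 0.155). Without proficient replicate 2, the library against its label, it was 0.19 (adjusted p = 0.753), and it was called without proficient replicate 3 (1.10, adjusted p = 0.0170), which leaves that library as the group. Whether the effect of BRCA2 status differed between untreated and siβ-catenin cells was tested as an interaction. It was called for DLL1 (1.57 ± 0.41, adjusted p = 0.0139) and for NOTCH3 (1.45 ± 0.28, adjusted p = 0.000284), 2 of 10 members against 2.5% of 17707 genes. Without BRCA2-proficient siβ-catenin replicate 2 the NOTCH3 difference was 1.14 and that of DLL1, not called, 1.19. These values rest on the intermediate replicate 3 as the lone library of its group. Both calls were lost in edgeR (adjusted p of 0.129 and 0.138), which called 0 of 17707 genes. They were also lost without proficient untreated replicate 3, which leaves a lone library in that group. The DLL1 call was lost as well without deficient untreated replicate 2 (adjusted p = 0.0572) or deficient siβ-catenin replicate 1 (0.0943). HEY1 was at −1.32 without proficient siβ-catenin replicate 3, again with a lone library left.

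NOTCH3 did not differ by BRCA2 status in untreated cells beyond the spread between libraries, with a log2 fold change of 0.068 and a 95% interval of −0.27 to 0.41. Under GSK3i it was 1.97-fold higher in BRCA2-deficient cells (0.98 ± 0.24, n = 3 and 3, adjusted p = 0.00110), and under siβ-catenin 2.85-fold higher (1.51 ± 0.23, n = 2 and 3, adjusted p = 1.25e-09). Without proficient replicate 2 the siβ-catenin value was 1.20 on the log2 scale. It then rests on proficient replicate 3 alone, the library between the GSK3i ranges. With GSK3i+siβ-catenin the groups overlapped (0.29 ± 0.32, adjusted p = 0.7), and without proficient replicate 2 the value was 0.71 (adjusted p = 0.0715). NOTCH1 had 49.6 and 77.0 normalised counts in proficient and 151, 109 and 253 in deficient siβ-catenin libraries, with a value of 1.41 ± 0.40 (n = 2 and 3, adjusted p = 0.00248) that was not called without proficient replicate 2 (1.12, adjusted p = 0.0560). NOTCH2 was not called under any of the 4 treatments with all libraries, and in untreated cells only without deficient replicate 3 (−0.57, adjusted p = 0.0376).

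HEY1 was lower in BRCA2-deficient than in BRCA2-proficient untreated cells (−1.27 ± 0.31, n = 2 and 3, adjusted p = 0.00144) and under GSK3i (−1.03 ± 0.16, n = 3 and 3, adjusted p = 2.78e-08), with no overlap in the values given above. The untreated call was lost without proficient replicate 3 (−1.02, adjusted p = 0.401). Under siβ-catenin the value was −1.93 ± 0.44 (n = 2 and 3, adjusted p = 0.000144), and it fell short of the threshold without proficient replicate 2 (−0.66, adjusted p = 0.182) or deficient replicate 3 (−2.03, adjusted p = 0.0795). With GSK3i+siβ-catenin it was −0.65 ± 0.27 (adjusted p = 0.113), and −0.90 (adjusted p = 0.000331) without proficient replicate 2. The 2 libraries against their labels thus moved HEY1 in opposite ways in the 2 siβ-catenin comparisons. NRARP was called lower in deficient cells under GSK3i (−0.96 ± 0.30, n = 3 and 3, adjusted p = 0.0197), a call that was lost in edgeR (adjusted p = 0.0993) and without proficient GSK3i replicate 1, 2 or 3 or deficient replicate 3 (adjusted p of 0.0589 to 0.230). HES1 had 218 and 150 in proficient and 289, 361 and 371 in deficient siβ-catenin libraries (0.87 ± 0.25, n = 2 and 3, adjusted p = 0.00334). Its value was 1.15 without proficient replicate 2 and 0.61, not called, without proficient replicate 3, each resting on the lone proficient library left. Under GSK3i HES1 was called without deficient replicate 1 (0.54, adjusted p = 0.0455).

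**Figure D5:**
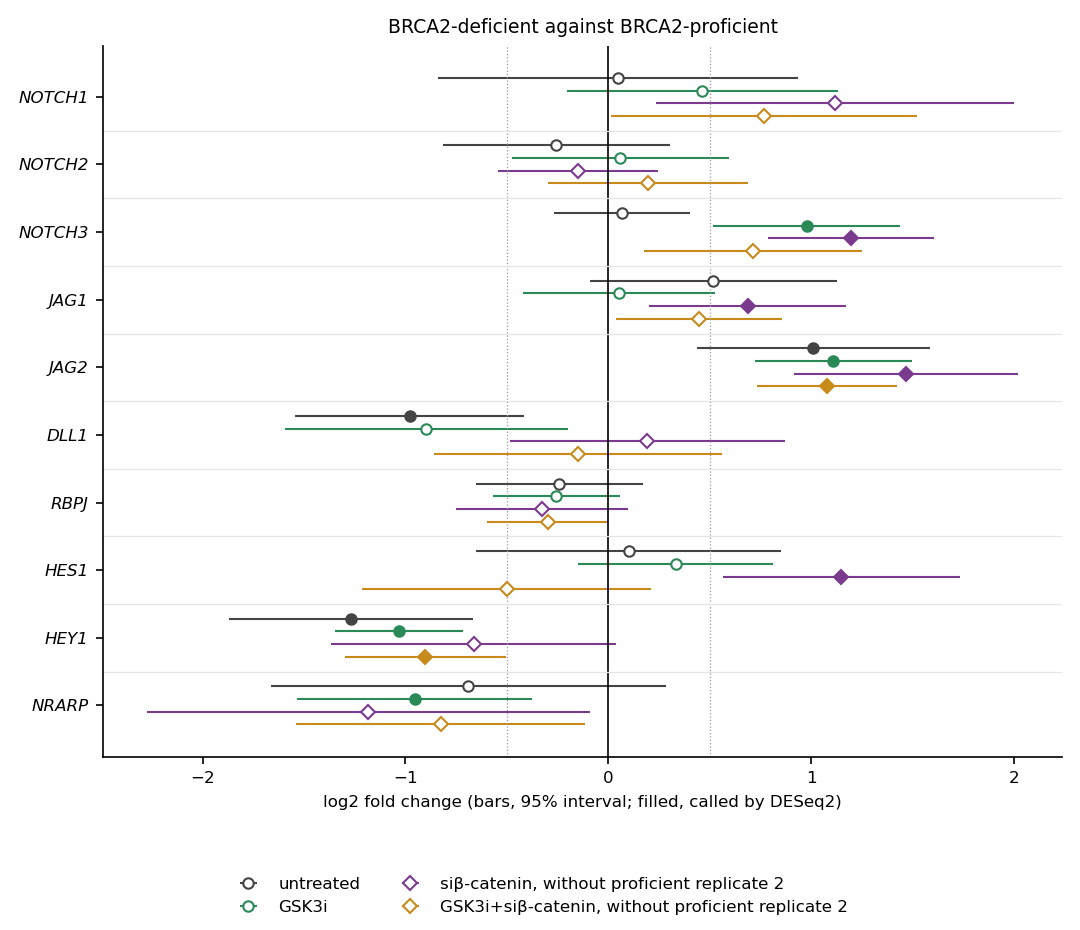
Log2 fold change with 95% interval (x axis) of each member (y axis) for BRCA2-deficient against BRCA2-proficient cells, untreated, under GSK3i, under siβ-catenin and under GSK3i+siβ-catenin. The last 2 are without the replicate 2 libraries against their labels, which leaves a lone proficient library under siβ-catenin. Filled points were called. JAG2 lay right of 0 in all 4 comparisons, at 1.01, 1.11, 1.47 and 1.08.

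Beyond the 10 members, 63 further pathway genes were listed by role, and 57 of them passed the filter (58 in BRCA2 depletion under siβ-catenin). With GSK3i, 13 of 57 were called in BRCA2-proficient cells, 4 higher and 9 lower, and 16 in BRCA2-deficient cells, 8 higher and 8 lower. These shares, 22.8% and 28.1%, were near those of all genes tested. The largest change in both was a fall of the Mastermind-like coactivator MAML3, by 2.09 and 2.29 on the log2 scale. In proficient cells NEURL1B, a ligand ubiquitin ligase (−1.74), the fringe glycosyltransferase MFNG (−1.58), HEYL (−1.23) and MAML2 (−0.99) followed. MFNG and HEYL had low mean normalised counts there, 16.6 and 27.9. Their SE was 0.66 and 0.47, and their DESeq2 adjusted p was 0.0495 and 0.0284. In deficient cells MAML3 was followed by HES7 (1.61), the fringe enzyme LFNG (−1.16), HES6 (1.14) and the corepressor CIR1 (−0.98). After siβ-catenin, GSK3i called 0 of 57 in proficient cells by either tool, against 0.0529% of all genes in DESeq2. In deficient cells 11 of 57 (19.3%, against 20.1% of all genes) were called, 1 higher and 10 lower, or 7 without siβ-catenin replicate 1. The largest there were MAML3 (−1.84), LFNG (−1.24), HEYL (−1.08), the corepressor TLE3 (−0.94) and MAML2 (−0.85).

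With siβ-catenin the shares called were near those of all genes. Under GSK3i 3 of 57 (5.26%) were called in each background, against 5.1% and 5.52% of all genes, namely TLE2 (1.21), DNER (−0.79) and the γ-secretase subunit APH1B (0.77) in proficient cells, and HES7 (−0.85), APH1B (0.68) and the γ-secretase subunit NCSTN (0.52) in deficient cells. Without proficient GSK3i+siβ-catenin replicate 2, TLE2 was 0.87 (adjusted p = 0.0252), while DNER (−0.67, adjusted p = 0.0697) and APH1B (0.48, adjusted p = 0.0718) were not called. Without GSK3i 2 (3.51%, against 2.97%) were called in proficient cells, MAML3 (−1.62) and POFUT1 (0.54), and 1 (1.75%, against 2.03%) in deficient cells, HES4 (1.15). Without proficient siβ-catenin replicate 2, which leaves a lone siβ-catenin library, MAML3 was −1.18 and POFUT1 0.49, under the size threshold.

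BRCA2 depletion called 8 of 57 (14%, against 6.91% of all genes) in untreated cells, 7 (12.3%, against 6.81%) under GSK3i, 24 of 58 (41.4%, against 27.4%) under siβ-catenin and 11 of 57 (19.3%, against 7.74%) under GSK3i+siβ-catenin. Without the libraries against their labels, 13 of the 24 and 9 of the 11 were called. Whether the shares differ was not tested. In the order untreated, GSK3i, siβ-catenin and both, 3 of the genes named were lower under all 4 treatments. These were the metalloprotease gene ADAM17 (−1.31, −1.19, −1.23 and −1.07), POGLUT1, which adds glucose to NOTCH repeats (−0.93, −0.95, −1.70 and −0.98), and the coactivator MAML1 (−1.03, −0.81, −0.83 and −0.78). Without the libraries against their labels the last 2 values were −1.13 and −1.05 for ADAM17, −1.63 and −1.15 for POGLUT1, and −0.80 and −0.80 for MAML1. Under siβ-catenin such values rest on a lone proficient library, the intermediate replicate 3. The HES family gene HES4 rose under GSK3i, siβ-catenin and both (1.63, 2.43 and 2.05, the last 2 at 2.59 and 1.83 without those libraries) and was 0.83 (adjusted p = 0.162) in untreated cells. Untreated cells also had called values for NEURL1B (−1.58), HES7 (−1.43), LFNG (1.11) and DNER (1.05). HEYL (1.26) was called under GSK3i, LFNG (1.5) and FURIN (1.26) under siβ-catenin, and NEURL1B (−1.20) and HES7 (−0.92) under both. Without the libraries against their labels FURIN was 1.24, from a lone proficient library, and HES7 (−0.89) was called. LFNG (0.83) and NEURL1B (−0.53, adjusted p = 0.363) were then not called. The count under siβ-catenin became 14 without proficient replicate 2, 11 without deficient replicate 1 and 7 when blocked by replicate.

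Patterns over the 22 libraries were compared as Pearson's r of log2(normalised count + 1), a description in which libraries of a group share treatment. Among members and AXIN2, NOTCH1 and JAG2 were most alike (r = 0.784), followed by NRARP and AXIN2 (0.779), and NOTCH3 and DLL1 (0.668), whereas DLL1 and AXIN2 (−0.789) and NOTCH3 and NRARP (−0.772) ran opposite. Among 11727 or 11728 genes with a mean of at least 100, those most like NOTCH3 were LRP5 (0.967), SEMA4G (0.967) and DCHS1 (0.964). Those most like JAG2 were DUSP8 (0.954), IQCE (0.951) and HES4 (0.950), and those most like HEY1 were RFXAP (0.942), LSM8 (0.936) and SPART (0.929). For JAG1 they were TNIK (0.914), PTPRK (0.872) and RNF217 (0.860), for DLL1 GALC (0.914), FZD7 (0.900) and PRKD1 (0.896), and for NRARP TCF3 (0.907), ELAC2 (0.906) and THAP11 (0.904). NOTCH1 was most like CEP170B (0.866), FGFR1 (0.864) and TBX2 (0.859). HES1 had no close counterpart, with JUN highest at 0.625, then ZFP36 (0.617) and STAG3L3 (0.611).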

How the data were processed

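Per the labels and the study's methods, poly(A) RNA was made into stranded libraries and sequenced as paired 75-base reads. The authors aligned reads to GRCh37 (hg19) with HISAT2 2.0.4, removed duplicates with Picard 1.9.2, used SAMtools 1.4, and deposited raw counts per Ensembl gene from featureCounts 1.5.0, as the submitters' processing notes list these versions. The reporting summary of the paper lists other versions of HISAT2, Picard and featureCounts, so which were used is unclear. The strand setting and Ensembl release are not given in the sources used here. Depths of 18.9 to 29.3 M counts per library limit precision for low genes such as NOTCH1, NRARP and DLL1.

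From these counts, each comparison was fitted with DESeq2 1.42.0 in R 4.3.3 on its own libraries, leaving out genes with fewer than 10 counts in more than 3 libraries, or, for interactions, keeping those that reached 10 counts in 3 or more libraries. Adjusted p-values cover all genes tested. Symbols were found for 36479 of 37908 identifiers. The members and lists were chosen with earlier results of these data known. Text names all members, up to 5 called pathway genes per comparison by size, and 3 genes most like each member whose group means span at least 1 on the log2 scale. The study describes independent experiments. Libraries of equal replicate number deviated together (correlation over 0.1 in all 3 pairs) in 7 of 12 comparisons, the lowest pair at 0.141 and the highest at 0.868; the other 5 had 2 pairs. Alternatives were edgeR 4.0.16 with limma 3.58.1, TMM scaling, no filter, 1 model over all groups, a replicate block, each library left out and, added after seeing the data, both doubted libraries left out. The DESeq2 and edgeR fits were also run, for some of the comparisons, on simulated counts with known changes. Those counts were drawn independently for each library, without replicate pairing or libraries against their labels, and the outcome is not given here. Figures used Python 3.11.15 and matplotlib 3.10.9.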

Additional observations from a re-analysis of the deposited data

Results flagged for a closer look

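A difference between 2 effects, tested as an interaction in DESeq2, passed for the following genes. Between backgrounds, the response to siβ-catenin without GSK3i was greater in BRCA2-deficient cells by 1.45 on the log2 scale for NOTCH3, 1.57 for DLL1, 0.89 for FURIN and 1.30 for MAML3. Between siβ-catenin with and without GSK3i in BRCA2-proficient cells, the difference was 2.11 for NOTCH3, −0.91 for JAG1, 1.71 for DLL1, −2.27 for NRARP, 0.75 for FURIN, −0.60 for POFUT1 and 1.85 for NEURL1B. In BRCA2-deficient cells the same difference passed for NRARP, at −2.00. The first 2 sets include libraries that went against their GSK3i label. Without BRCA2-proficient siβ-catenin replicate 2, which leaves a lone library in its group, FURIN was 0.87 and MAML3, not called, 0.87 in the first set. Without both such libraries, FURIN was 0.58 (adjusted p = 0.0964), POFUT1 −0.46 (0.183) and NEURL1B 0.81 (0.196) in the second, none of them called.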

How the results depend on the processing

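The 10 members in 18 comparisons gave 180 fold changes, and 2250 recomputed values. Of these, 2120 kept their call and direction, counting 134 uncalled values that changed sign as kept, 100 lost and 29 gained a call, and 1 reversed: HEY1 for GSK3i after siβ-catenin in BRCA2-proficient cells, at 1.44 without both libraries against their labels. edgeR called 0 members for siβ-catenin in BRCA2-deficient cells with and without GSK3i, for BRCA2 depletion in untreated cells, for the interaction of BRCA2 status and siβ-catenin without GSK3i, and for both interactions of GSK3i and siβ-catenin, with 6, 4, 3, 3, 5 and 1 members, in that order, at an unadjusted p below 0.05. Over all genes edgeR called 267, 0, 326, 0, 4 and 11 in these comparisons, in the same order. The cause was not tested. One model over all groups called 0 for BRCA2 status and siβ-catenin without GSK3i. It also ended the calls of HEY1 for GSK3i in proficient cells (adjusted p = 0.0596), DLL1 and HES1 for BRCA2 depletion in untreated cells (0.0708) and under siβ-catenin (0.0893), JAG1 for GSK3i and siβ-catenin in proficient cells (0.107), and DLL1 (0.156) and JAG2 (0.244) for siβ-catenin in deficient cells without and with GSK3i, and it called NOTCH3 (0.0363) and DLL1 (0.0444) for siβ-catenin under GSK3i in deficient and proficient cells. With no filter on low counts JAG2 was not called for siβ-catenin under GSK3i in deficient cells (0.0686). The replicate block called 7 for siβ-catenin under GSK3i in deficient cells, where it called 1341 of all genes. It called 1 for each interaction of BRCA2 status and GSK3i, where it called 94 of all genes with control siRNA and 264 with siβ-catenin. Beyond the pairing effects named in the report it changed no other call of a member. Without both doubted libraries 1 member was called for GSK3i after siβ-catenin in proficient cells, and 2 for the interaction of GSK3i and siβ-catenin there.

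Leaving out each library in turn gave 0 to 5 members for siβ-catenin under GSK3i in deficient cells, 0 to 2 and 2 to 4 for siβ-catenin without GSK3i in proficient and deficient cells, 1 to 4 for BRCA2 depletion in untreated cells and 1 to 2 with GSK3i+siβ-catenin. The interactions gave 0 to 1 and 0 to 2 for BRCA2 status and GSK3i with control siRNA and siβ-catenin, 0 to 3 for BRCA2 status and siβ-catenin without GSK3i, and 2 to 5 and 0 to 1 for GSK3i and siβ-catenin in proficient and deficient cells. A lone library left in a group was assumed to vary like the others. Shares over all genes in the fits with a library left out are not given here, so these counts have no background beside them. Counts of other pathway genes moved by over 1.5 times more often, and edgeR called 4 of them for BRCA2 depletion in untreated cells, under GSK3i and under GSK3i+siβ-catenin. With 2 libraries in 2 groups, low counts for NOTCH1, NRARP and DLL1, and 2 libraries against their labels, values in BRCA2-proficient siβ-catenin cells are the least certain.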
